A study of Mus musculus with 6 samples.

Results

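Apoptosis effectors and members of the BCL2 family were examined in growth plate cartilage from mouse embryos with and without Cre-mediated deletion of Hnrnpk. The members were the 10 genes Bax, Pmaip1, Bbc3, Perp, Fas, Tnfrsf10b, Bcl2, Bcl2l1, Bcl2l2 and Mcl1, taken from the table by symbol. All 10 were found among its 15803 genes, and all 10 reached the mean of 1 CPM that was required for testing.

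RNA was taken from the cartilage of embryos at E18.5 and sequenced as 6 libraries. The 3 WT libraries came from Hnrnpk fl/fl embryos and the 3 CKO libraries from Col2a1-Cre;Hnrnpk fl/fl embryos, so the floxed alleles were shared by both groups and Cre was carried by the CKO group only. The sexes were not kept apart among the embryos, and the study's controls were littermates of the mutants. The table gives CPM, the reads on a gene scaled to the same total in each library, and the comparison asks how each gene differed between the genotypes.

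Cre was driven by Col2a1, so recombination is limited to cells that have expressed this gene, whereas the RNA came from the whole piece of tissue. Nothing in the labels says that the libraries came from separate embryos, and p-values therefore measure only the spread between these samples, which may be technical. In bulk tissue, fewer cells of a type and less RNA per cell cannot be told apart. Depth was low, at 1379674, 1332542 and 1183743 reads in WT 1, 2 and 3 and 1454094, 1385468 and 1153871 reads in CKO 1, 2 and 3. A single read was therefore worth between 0.688 and 0.867 CPM.

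Hnrnpk, the targeted gene, had 842, 955 and 944 CPM in the libraries labelled WT 1, 2 and 3, against 759, 949.9 and 780.0 CPM in those labelled CKO 1, 2 and 3. CKO 2 lay inside the WT range, and the log2 fold change was -0.14 (SE 0.15, limma's adjusted p = 0.622). These whole-gene values do not separate the genotypes, and the table does not count the deleted exons apart, so each direction given here rests on the labels. The libraries did separate by label along the first principal component of the 5022 genes whose mean reached 20 CPM, and this component held 48.2% of the variance. On the second component, with 29.4% of the variance, CKO 2 scored 34.4, whereas CKO 1 scored -16.5 and CKO 3 scored -15.3.

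The tissue label was checked against 6 chondrocyte genes, which were found in all libraries, with Sox9 the lowest of them at 32.1 to 102 CPM. Their summed level was 14199 ± 2117 CPM in WT and 2884 ± 342 CPM in CKO (SD, n = 3). Matn1 was the most abundant of them in WT at 6841 ± 859 CPM, and Col2a1 in CKO. In limma 5 of these 6 genes fell past an adjusted p of 0.05, as they did in edgeR and DESeq2. Sox9 did not pass, with 84.0 ± 17.2 CPM in WT against 49.2 ± 21.7 CPM in CKO. Col2a1, whose promoter drives Cre, fell from 3266 ± 623 to 1596 ± 307 CPM, and its call was lost without WT 2 (limma's adjusted p = 0.0651), CKO 1 (0.0648) and CKO 3 (0.0705). Chondrocyte RNA thus differed between the same libraries as the members described here, and its part in their differences was not tested.

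Apoptosis through the mitochondrial pathway is governed by the BCL2 family. Effector proteins such as BAX make the outer mitochondrial membrane permeable, anti-apoptotic members such as BCL-XL hold them in check, and BH3-only proteins relieve that restraint. A separate route starts at death receptors on the cell surface, and the transcription factor p53 induces genes of both routes. In the growth plate, hypertrophic chondrocytes at the border to bone are known to die by apoptosis or to turn into osteoblasts.

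In the CKO libraries 5 of the 10 members rose past limma's adjusted threshold of 0.05, namely Bax, Pmaip1, Perp, Fas and Tnfrsf10b, where 3.18% of the 12155 genes tested did so. None of the members fell (0 of 10, against 2.6% of all genes), and 0 were lower at an unadjusted p under 0.05 in limma or past the adjusted threshold of edgeR or DESeq2. Neither edgeR nor DESeq2 gave Bcl2 an adjusted p. The anti-apoptotic genes Bcl2, Bcl2l1, Bcl2l2 and Mcl1 did not pass the test, nor did the BH3-only gene Bbc3. In 7 of the 10 members every CKO library lay above every WT library, which held for 14.5% of all genes tested, and in 0 members every CKO library lay below, which held for 13.2%. These 7 were the called genes together with Bcl2l1 and Mcl1. An exact two-sided permutation test gives p = 0.1 for each of the 7, the smallest value that 3 libraries against 3 allow. The median log2 fold change was 0.97 over the 10 members and 0.013 over all genes tested.

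By the criterion of the study, which takes an absolute log2 fold change over 1 and p under 0.05 before adjustment, 5 members were higher, where 5.3% of all genes were. Bax is missing from these 5 because its log2 fold change lies under 1, and Mcl1 takes its place. No member was lower by this criterion (0 of 10), which 5.1% of all genes met. The count of members past the adjusted threshold depended on single libraries. It was 4 without WT 1, 2 without WT 2, 3 without WT 3, 1 without CKO 1 and 2 without CKO 3, and it was 5 without CKO 2. The cause of these differences was not tested. Scaling by TMM or by DESeq2's size factors gave 4 in each case, without Fas. The count over all genes moved too, from 387 higher to 132, 323, 134 and 122 in the fits without WT 2, WT 3, CKO 1 and CKO 3, to 136 without WT 1 and to 658 without CKO 2. By the criterion of the study, 3 members were higher without WT 3 and 3 without CKO 1, in both cases without Fas and Mcl1. There were 4 without CKO 2, in edgeR and in DESeq2, in each case without Mcl1, and 4 without CKO 3, where Fas was lost.

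**Figure D1:**
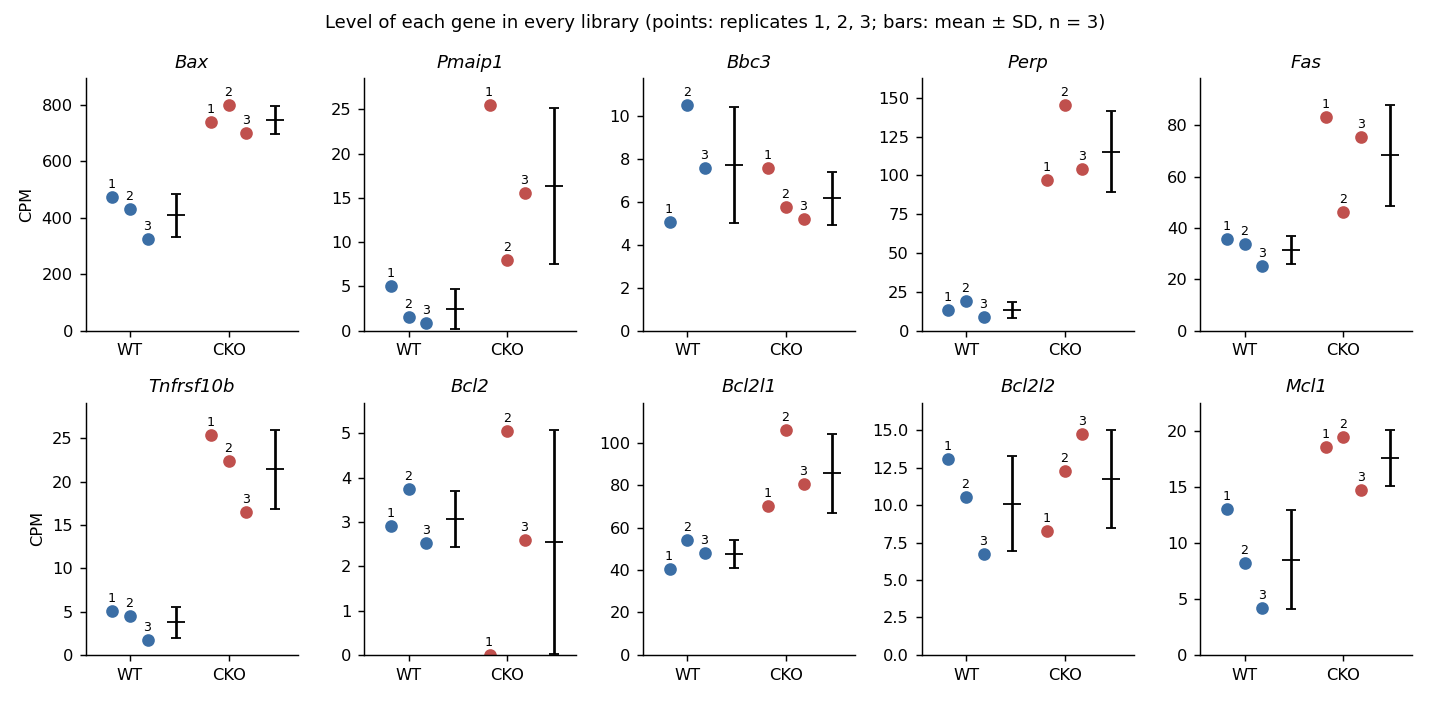
Level of each of the 10 genes in every library in CPM, with WT in blue, CKO in red and the replicate number above each point. Bars are the mean and SD of 3 libraries. The groups do not overlap in 7 genes, and WT 3 is the lowest WT library in 8 of the 10.

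Bax encodes the effector that oligomerizes in the outer mitochondrial membrane. The gene (ENSMUSG00000003873) lies at chr7:45461697-45466898 on the minus strand of GRCm38. Its levels were 472, 430.0 and 324 CPM in WT 1, 2 and 3 against 739, 798 and 699 CPM in CKO 1, 2 and 3. The highest WT library thus stayed well below the lowest CKO library, and WT 3 was the lowest of all. The mean rose from 408 ± 76.5 CPM to 745 ± 49.8 CPM (SD, n = 3), a ratio of 1.82, with a log2 fold change of 0.88 (SE 0.17, limma's adjusted p = 0.0157). Between 383 and 1105 reads per library stood behind these values, so the spread between WT libraries (a CV of 18.7%) was well above the 4.32% that counting error gives. Bax missed the threshold without WT 2 (adjusted p = 0.0681), without CKO 1 (0.0663) and without CKO 3 (0.0619), while its log2 fold change lay between 0.72 and 0.99 over the 13 alternative fits, which changed the scaling, the pseudocount, the filter, the test or the libraries used or added a replicate block.

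Of the exon bases of Bax, 192 (12.2%) are shared on the same strand with the annotated gene Gm45808, which the table does not list. The study also measured Bax by qPCR, and its primer pair shows which part of the mRNA that assay reads. Both are printed in the direction of synthesis.
Bax forward primer: tgaagacaggggcctttttg
Bax reverse primer: aattcgccggagacactcg
Both primer sites were found in 4 of the 6 annotated Bax transcripts, 140 bases apart from end to end, with the forward site in exon 2 and the reverse site in exon 3 of the transcript of 867 bases. The same pair of sites occurs in 1 other gene, Gm45808.

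Since several members are known p53 targets, the 250 bases before each start in a set of RefSeq starts (GRCm38.p6) were searched on both strands for the p53 consensus decamer. The set used here held entries for 7 of the 10 members, with 11 starts in all, and none for Pmaip1, Perp or Tnfrsf10b. Of these 11 windows 1 held the decamer, that of Bax, where 7.13% of all 32851 windows of this length did. The windows of Bax (chr7:45466899-45467148, minus strand) and Fas (chr19:34290409-34290658, plus strand) are shown because these are the called members with an entry. Capitals mark the decamer.
Bax upstream: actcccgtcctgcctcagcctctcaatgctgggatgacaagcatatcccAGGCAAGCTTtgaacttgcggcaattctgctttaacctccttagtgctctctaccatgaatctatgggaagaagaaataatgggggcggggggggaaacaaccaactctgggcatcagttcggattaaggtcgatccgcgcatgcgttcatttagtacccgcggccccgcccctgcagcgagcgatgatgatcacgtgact
Fas upstream: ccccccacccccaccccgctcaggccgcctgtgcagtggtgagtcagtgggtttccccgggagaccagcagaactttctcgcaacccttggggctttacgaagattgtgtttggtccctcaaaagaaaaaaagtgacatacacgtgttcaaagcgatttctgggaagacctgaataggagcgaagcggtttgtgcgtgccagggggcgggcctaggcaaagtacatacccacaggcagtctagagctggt
The decamer of Bax begins 201 bases before the start. No exon is annotated in the window, which lies within an intron of Gm45808 on the same strand, while the Fas window lies outside annotated genes. The other p53 targets described here had 20 windows over 14 genes with an entry, of which 6 windows, each of a different gene, held at least 1 decamer, and Cdkn1a was the gene with a pair of them no more than 13 bases apart, as 0.0639% of all windows had. A match of letters describes the window and does not show that a factor binds there. Bases further upstream or within the gene were not searched, so a window without a match does not show that a gene lacks a site.

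Pmaip1 and Bbc3 encode the BH3-only proteins NOXA and PUMA, both known as products of p53 target genes. The former passed the test and the latter did not. Pmaip1 had 7, 2 and 1 reads in WT 1, 2 and 3 and 37, 11 and 18 reads in CKO 1, 2 and 3. The groups did not overlap, but CKO 2 stood close to WT 1. In CPM the gene rose from 2.47 ± 2.28 to 16.3 ± 8.78 (SD, n = 3), with a log2 fold change of 2.38 (SE 0.55, limma's adjusted p = 0.0330). With so few reads the CV of 92.0% in WT is to be read beside the 54.8% that counting error alone gives. The call was lost without WT 2 (adjusted p = 0.126), without WT 3 (0.0807), without CKO 1 (0.133) and without CKO 3 (0.117).

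Bbc3 had 7, 14 and 9 reads in the WT libraries and 11, 8 and 6 reads in the CKO libraries. All CKO libraries lay within the range of WT in CPM. The means were 7.73 ± 2.72 CPM in WT and 6.18 ± 1.23 CPM in CKO (log2 fold change -0.25, SE 0.38, limma's adjusted p = 0.759). The 95% interval of this log2 fold change ran from -1.09 to 0.59. The difference between Bbc3 and Pmaip1 was itself not tested.

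Perp encodes a tetraspan membrane protein that is a p53 effector in apoptosis and a component of desmosomes in stratified epithelia. The gene lies at chr10:18845020-18857073 on the plus strand of GRCm38. Of all members it differed most on the log2 scale. Its levels were 13.05, 18.8 and 8.45 CPM in WT 1, 2 and 3 against 97.0, 145 and 104 CPM in CKO 1, 2 and 3. Even the lowest CKO library held several times the level of the highest WT library. The mean rose from 13.4 ± 5.17 to 115 ± 26.0 CPM (SD, n = 3), a ratio of 8.60, with a log2 fold change of 3.05 (SE 0.29, limma's adjusted p = 6.54e-04). By p-value Perp ranked 14 of the 12155 genes tested, and it was called in all 13 alternatives, with a log2 fold change between 2.78 and 3.31.

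Since Perp is abundant in epithelia, 14 genes of stratified epithelium were read beside it. Of these, 6 were not listed in the table (Krt5, Krt14, Cdh1, Pkp1, Dsg3 and Dsc3), and 3 reached the level for testing. In limma 0 of the 3 passed the adjusted threshold and 1 had an unadjusted p under 0.05. The tests of edgeR and DESeq2 each called 0 of the 2 genes to which they gave an adjusted p. The summed level of the list was 46.4, 42.0 and 21.1 CPM in WT 1, 2 and 3 against 46.1, 62.8 and 48.5 CPM in CKO 1, 2 and 3, with overlap between the groups, and Krt10 was the most abundant. Sfn and Epcam, chosen after their values were seen, stood at 16 and 6 reads in CKO 2 and at 4 reads or fewer in each other library. Without CKO 2 the log2 fold change of Perp was 2.88 (limma's adjusted p = 7.55e-04), and the part of epithelial cells in its level was not tested.

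Fas and Tnfrsf10b encode death receptors, the receptor for FAS ligand and the mouse receptor for TRAIL. Both rose. Fas lies at chr19:34290666-34327772 and Tnfrsf10b at chr14:69767472-69784411, each on the plus strand of GRCm38. Fas had 35.5, 33.8 and 25.3 CPM in WT 1, 2 and 3 against 83.2, 46.2 and 75.4 CPM in CKO 1, 2 and 3. CKO 2 was the lowest CKO library and lay closer to WT 1 than to CKO 1. The mean rose from 31.5 ± 5.44 to 68.3 ± 19.5 CPM (SD, n = 3), with a log2 fold change of 1.06 (SE 0.26, limma's adjusted p = 0.0424). This call held in 5 of the 13 alternatives, the fewest among the called members. Under scaling by TMM factors limma's adjusted p was 0.0541, under DESeq2's size factors 0.0504 and with a replicate block 0.0801. It was 0.112 without WT 1, 0.123 without WT 2, 0.103 without WT 3, 0.163 without CKO 1 and 0.163 without CKO 3, whereas without CKO 2 it was 0.00539 with a log2 fold change of 1.32.

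Tnfrsf10b had 7, 6 and 2 reads in WT 1, 2 and 3 and 37, 31 and 19 reads in CKO 1, 2 and 3. Each CKO library held more than each WT library, with CKO 3 the lowest of them. In CPM it rose from 3.76 ± 1.81 to 21.4 ± 4.56 (SD, n = 3), with a log2 fold change of 2.30 (SE 0.40, limma's adjusted p = 0.00997). The call was lost in 1 of 13 alternatives, without CKO 1 (adjusted p = 0.0537). Transcripts of 12 other genes match Tnfrsf10b at 90% identity or more over at least 300 bases, so its reads could in part be shared with them.

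**Figure D2:**
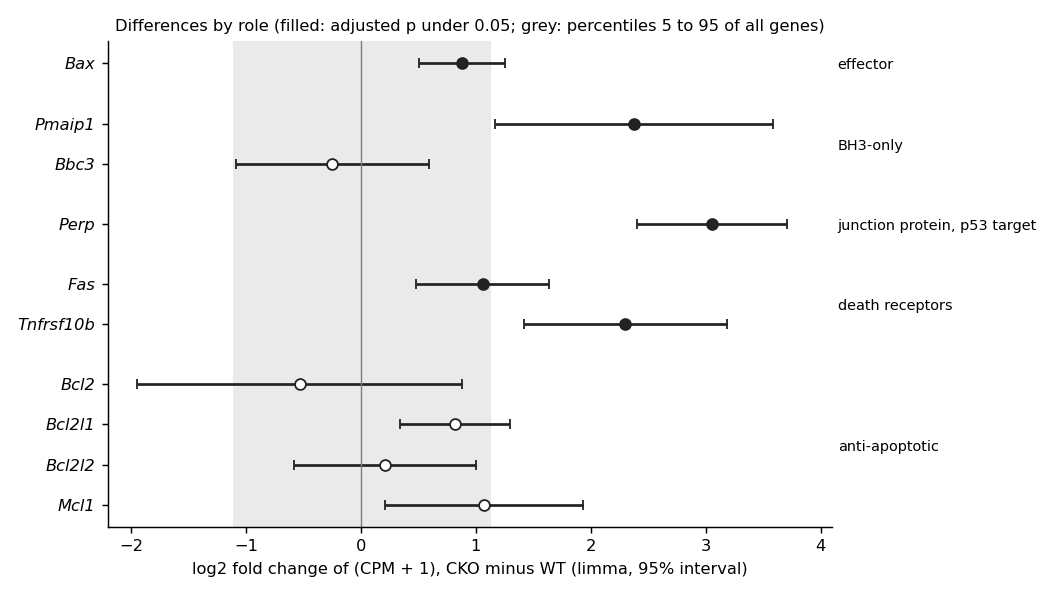
Log2 fold change of each gene between CKO and WT on the log2(CPM + 1) scale with its 95% interval from limma, ordered by role. Filled points passed the adjusted threshold, and the grey band spans percentiles 5 to 95 of all genes tested (-1.11 to 1.13). Pmaip1, Perp and Tnfrsf10b lie beyond the band, whereas Bax and Fas lie inside it.

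The anti-apoptotic members bind and neutralize effectors and BH3-only proteins. Bcl2l1 (chr2:152780668-152831728, minus strand of GRCm38) encodes BCL-XL, a member of this kind on which chondrocyte survival is known to depend. It had 40.6, 54.0 and 48.2 CPM in WT 1, 2 and 3 against 70.1, 106 and 80.6 CPM in CKO 1, 2 and 3. All CKO libraries were above all WT libraries, and CKO 2 was the highest. The means were 47.6 ± 6.74 and 85.6 ± 18.49 CPM (SD, n = 3), with a log2 fold change of 0.82 (SE 0.22) that just missed the threshold (limma's adjusted p = 0.0524). At an adjusted threshold of 0.1 it would be called. At 0.05 it was called in 0 of the 13 alternative fits, edgeR and DESeq2 included, where the adjusted p ranged from 0.0511 to 0.186 and the log2 fold change from 0.66 to 0.95. The 95% interval, from 0.34 to 1.30, covers the log2 fold change of Bax.

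Bcl2l1 is also abundant in erythroid cells, of which 9 marker genes were listed. Hba-a2, the most abundant over all libraries, had 39 reads in CKO 2 and at most 3 in any other library, and Alas2, Slc4a1 and Ahsp were among those not listed in the table. The summed level was 0.725, 6.004 and 0.845 CPM in WT 1, 2 and 3 against 2.06, 28.9 and 6.07 CPM in CKO 1, 2 and 3. Of the 2 genes tested in limma 0 passed the adjusted threshold and 0 had an unadjusted p under 0.05, DESeq2 called 0 of the 1 gene to which it gave an adjusted p, and edgeR's filter kept none of them. Without CKO 2 the log2 fold change of Bcl2l1 was 0.66 (limma's adjusted p = 0.0628), and the part of erythroid cells in its level was not tested.

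Mcl1, whose product is a short-lived protein that restrains BAK and BAX, had 18, 11 and 5 reads in WT 1, 2 and 3 and 27, 27 and 17 reads in CKO 1, 2 and 3. The groups did not overlap in CPM, although WT 1 came close to CKO 3 at 13.05 against 14.7 CPM. The means were 8.51 ± 4.42 and 17.6 ± 2.52 CPM (SD, n = 3). The log2 fold change of 1.07 (SE 0.39) met the criterion of the study but not the adjusted threshold (limma's adjusted p = 0.141). Mcl1 no longer met that criterion without WT 3 (log2 fold change 0.70), without CKO 1 (unadjusted p = 0.0532 in limma), without CKO 2 (log2 fold change 0.997), in edgeR (0.98) or in DESeq2 (unadjusted p = 0.0726).

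Bcl2 and Bcl2l2, which encode BCL-2 and BCL-W, were sparse and overlapped between the groups. Bcl2 had 3 to 5 reads in the WT libraries and 0, 7 and 3 reads in CKO 1, 2 and 3, and the count of 0 in CKO 1 has an exact 95% interval for counting error that reaches 2.54 CPM. Its log2 fold change of -0.53 (SE 0.64, limma's adjusted p = 0.685) took the opposite sign, 0.21, without CKO 1, and its 95% interval was wide, from -1.94 to 0.88. Bcl2l2 had 8 to 18 reads in WT and 12 to 17 in CKO, with a log2 fold change of 0.21 (SE 0.36, limma's adjusted p = 0.783) that was -0.030 without WT 3. Reads of these genes may not be wholly their own. Bcl2 shares 558 exon bases (6.09%) with an antisense transcript, D630008O14Rik, and the strand setting of the counting is not given in the sources used here. Bcl2l2 shares 594 exon bases (13.3%) with Gm20521 on the same strand, which had 16 reads in all WT and 6 in all CKO libraries.

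Levels were compared between genes per kilobase of exons. Bax was by far the highest member in both groups, at 259 ± 48.5 CPM per kilobase in WT and 473 ± 31.6 in CKO. In WT it was followed by Fas at 15.3 ± 2.64 and Bcl2l1 at 10.4 ± 1.47 CPM per kilobase, whose gap exceeded the sum of their SDs. From Bcl2l1 down, through Perp (6.87), Bbc3 (3.64), Mcl1 (2.49), Bcl2l2 (2.26), Pmaip1 (0.905), Tnfrsf10b (0.689) and Bcl2 (0.334 CPM per kilobase), no gap between neighbours exceeded the sum of their SDs.

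In CKO the order was different. Perp moved to the second place, at 59.1 ± 13.3 CPM per kilobase, ahead of Fas at 33.1 ± 9.46 and Bcl2l1 at 18.7 ± 4.03, and each of these gaps exceeded the sum of the SDs. After another such gap came Pmaip1 (5.98), Mcl1 (5.15), Tnfrsf10b (3.93), Bbc3 (2.91) and Bcl2l2 (2.63 CPM per kilobase), with no such gap between neighbours. Bcl2 was the lowest at 0.279 CPM per kilobase, apart from Bcl2l2 by more than the sum of their SDs. With the length of the longest transcript in place of all exons, some gaps between neighbours no longer exceeded the sum of the SDs. These were the gap from Fas to Bcl2l1 in WT and the gaps from Perp to Fas and from Fas to Bcl2l1 in CKO. In turn, the gap from Bcl2l1 to Perp in WT then exceeded this sum. Mcl1 and Bbc3 became neighbours in the CKO order, with a gap that exceeded the sum of their SDs. The longest transcript moved Bcl2l1 to 18.53 CPM per kilobase in WT and 33.3 in CKO, and Tnfrsf10b to 1.18 and 6.74.

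**Figure D3:**
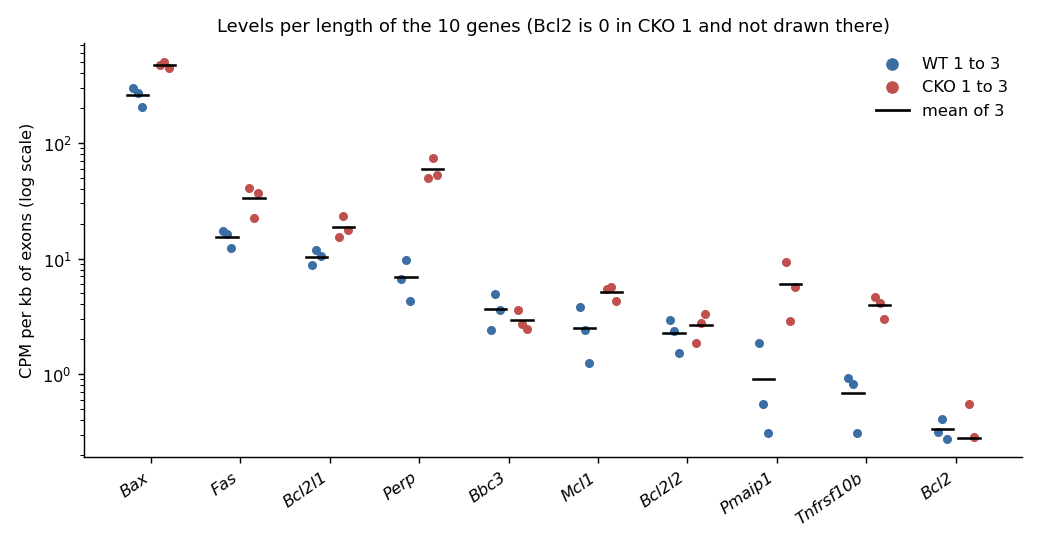
Level per length of the 10 genes in CPM per kilobase of annotated exons on a log axis, ordered by the WT mean. Points are libraries (WT blue, CKO red) and lines are means of 3. Bax stands above all other members in both groups, and Perp passes Fas and Bcl2l1 in CKO.

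The level of Bax was also set against its opponents. Summed per length, the 4 anti-apoptotic members stood at 15.5 ± 1.76 CPM per kilobase in WT and 26.7 ± 4.90 in CKO (SD, n = 3), and Bcl2l1 made up 67.6% and 69.6% of these sums. The ratio of Bax to this sum was 18.8, 16.1 and 15.2 in WT 1, 2 and 3 and 20.8, 15.7 and 17.4 in CKO 1, 2 and 3. The groups overlapped, with means of 16.7 ± 1.90 and 17.97 ± 2.55. The anti-apoptotic sum itself did not overlap between the groups, at 15.9, 17.0 and 13.5 CPM per kilobase in WT 1, 2 and 3 against 22.6, 32.1 and 25.5 in CKO 1, 2 and 3. These sums and ratios are descriptions of mRNA and were not tested.

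Across the members, WT 3 held the lowest WT level in 8 of 10 and the highest in 0. It also stood apart in summed markers, with 16629 CPM of chondrocyte genes against 12754 in WT 1 and 13213 in WT 2. Muscle genes summed to 165 CPM in WT 3 against 63.8 and 39.0, and hypertrophic genes to 696 against 270.4 and 276, and the part of these differences in the levels of the members was not tested. The p53 target Cdkn1a was likewise lowest in WT 3, where it had 251 CPM, compared with 475 in WT 1 and 455 in WT 2. Without WT 3, the log2 fold change was 0.72 for Bax, 2.78 for Perp, 1.93 for Tnfrsf10b and 0.70 for Mcl1, each the lowest of its 6 values with a library left out.

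The genes most like Bax over the 6 libraries, by the root mean square difference of log2(CPM + 1) after subtraction of the WT mean, were Ccdc58 (0.0683), Rps27l (0.0811) and Llph (0.0977), out of 5021 genes compared. Rps27l, which encodes a protein resembling a ribosomal protein, had 1427, 1477 and 956 CPM in WT 1, 2 and 3 against 2374, 2479 and 2347 CPM in CKO 1, 2 and 3. As in Bax, WT 3 was the lowest library and the CKO libraries differed little from each other. This likeness is a description and was not tested.

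**Figure D4:**
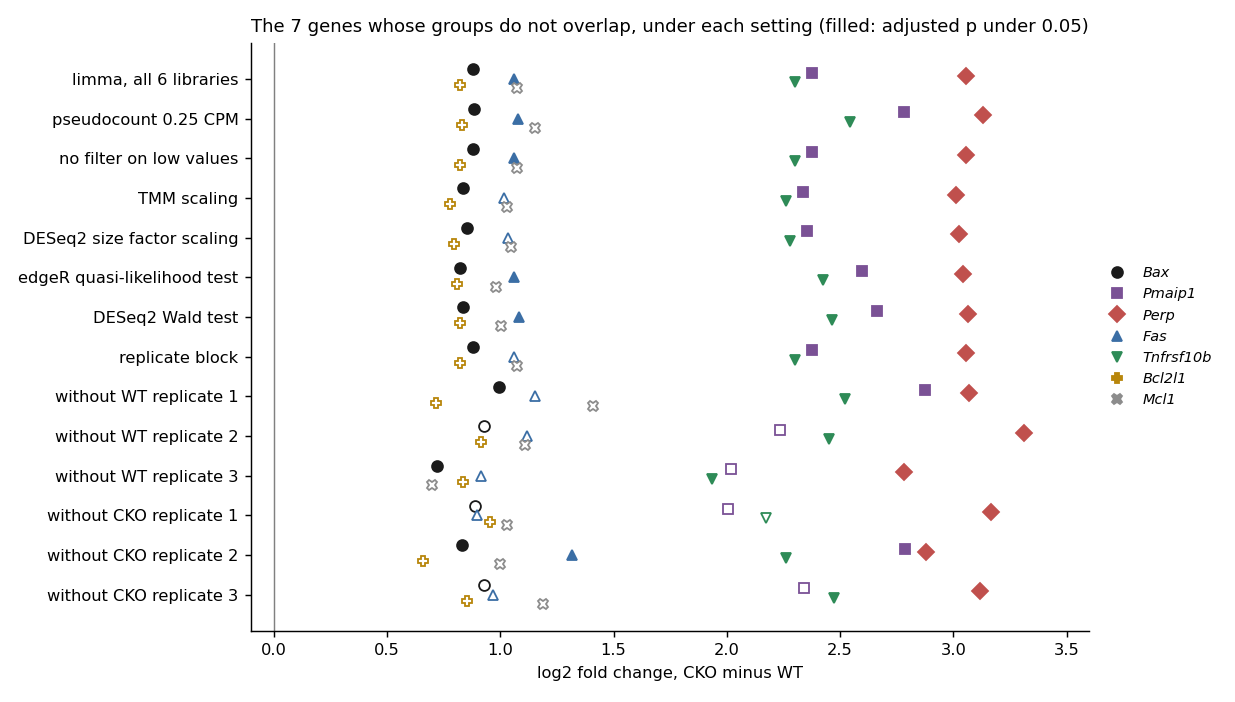
Log2 fold change of the 7 genes whose groups do not overlap, under each setting of the analysis, with points filled where the adjusted p was under 0.05. Perp is filled in all settings and Bcl2l1 and Mcl1 in none. Bax loses the call without WT 2, CKO 1 or CKO 3.

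The other genes of the apoptotic machinery were read in 8 lists, of effectors, BH3-only proteins, anti-apoptotic proteins, death receptors with their ligands and adaptors, caspases, apoptosome components, inhibitors of apoptosis and the DNA fragmentation factor. Besides the members they hold 39 genes, of which 35 were in the table and 29 were tested. In limma 1 of the 29 rose past the adjusted threshold and 0 fell, a count near the background of 3.18% higher and 2.6% lower over all genes, with 5 higher and 0 lower at an unadjusted p under 0.05. The tests on recovered reads of edgeR and DESeq2 likewise called 1 higher and 0 lower, although they gave an adjusted p to fewer of these genes. The median log2 fold change was 0.25, against 0.97 for the members. CKO lay above WT without overlap in 7 of the 29 and below in 1 (Birc2), where 14.5% and 13.2% of all genes did, and in the remaining genes the groups overlapped.

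Cycs, the gene for cytochrome c, was the single gene called and the most abundant. It rose from 380.03 ± 3.42 to 626 ± 67.3 CPM (SD, n = 3; log2 fold change 0.71, SE 0.14, limma's adjusted p = 0.0186). The call was lost without WT 1 (adjusted p = 0.0891), WT 2 (0.0872), CKO 1 (0.0639) and CKO 3 (0.0752) and with a replicate block (0.0506), whereas 3 genes were called without CKO 2. No caspase passed in limma, edgeR or DESeq2 (0 of 6), with 2 higher at an unadjusted p under 0.05 in limma, and Casp6, the most abundant, had 34.9 ± 11.8 CPM in WT and 53.5 ± 15.7 CPM in CKO. Casp8, the initiator of the death receptor route, was chosen after its values were seen. It had 10.5 ± 2.41 CPM in WT and 20.5 ± 0.944 CPM in CKO without overlap (log2 fold change 0.93, limma's adjusted p = 0.0868).

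No further gene of these lists passed. Bak1, the effector that acts beside BAX and likewise chosen after its values were seen, had 40.0 ± 9.61 CPM in WT and 62.5 ± 8.57 CPM in CKO without overlap (log2 fold change 0.65, limma's adjusted p = 0.137). Tnfrsf1a, the receptor for tumor necrosis factor and the most abundant death receptor gene, had 169 ± 4.07 and 234 ± 31.8 CPM without overlap (log2 fold change 0.46, limma's adjusted p = 0.130). The BH3-only gene Bad, the most abundant of its list, had 74.6 ± 9.61 CPM in WT and 74.2 ± 5.58 CPM in CKO. Birc2, an inhibitor of apoptosis, had 26.1 ± 3.23 and 19.4 ± 1.93 CPM, and Dffa, the inhibitor subunit of the fragmentation factor, had 9.27 ± 2.74 and 6.67 ± 2.97 CPM. Fasl, the ligand of Fas, was not listed in the table, and Tnfsf10, which encodes TRAIL, had 1 read in WT 1, 1 read in CKO 2 and 0 in the other libraries. Tnfsf10 was chosen after its values were seen.

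**Figure D5:**
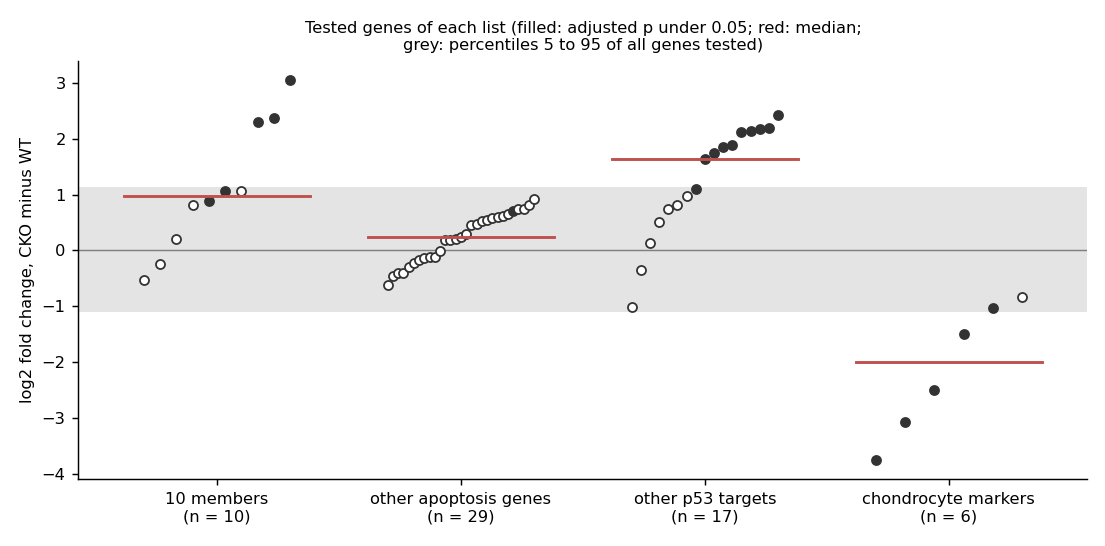
Log2 fold change between CKO and WT of the tested genes of 4 lists, sorted within each list, with filled points past the adjusted threshold and red lines at the medians. The grey band spans percentiles 5 to 95 of all genes tested. Medians are 0.97 for the members, 0.25 for the other apoptosis genes, 1.63 for the other p53 targets and -1.996 for the chondrocyte markers.

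Bax, Pmaip1, Bbc3, Perp, Fas and Tnfrsf10b are known as p53 targets, and a list of 18 other p53 targets was therefore read beside them. The list was chosen with earlier results of these data known, so its counts are description only. Of the 17 tested, 10 rose past limma's adjusted threshold and 0 fell, where 3.18% of all genes rose and 2.6% fell. At an unadjusted p under 0.05 in limma, 13 were higher and 1 was lower. Genes of the list higher past limma's adjusted threshold numbered 6 without WT 1, 8 without WT 2 and 10 without WT 3. They numbered 8 without CKO 1, 10 without CKO 2 and 7 without CKO 3. Among the genes with an adjusted p, edgeR called 10 of 15 higher and DESeq2 11 of 16, and both called 0 lower. The median log2 fold change was 1.63. Cdkn1a, which encodes the cell cycle inhibitor p21, was the most abundant and rose from 393 ± 124 to 1669 ± 235 CPM (SD, n = 3; log2 fold change 2.13, limma's adjusted p = 0.00130). Mdm2, the ubiquitin ligase that limits p53, rose by 1.75 and Ccng1, the gene for cyclin G1, by 1.63 on the log2 scale. Btg2 (1.89), Gtse1 (2.17), Eda2r (2.19), Plk2 (1.85) and Trp53inp1 (2.42) rose as well, with limma's adjusted p between 0.00196 and 0.0146 for these 7 genes. Plk2 lost the call without WT 1 (0.0516), and Trp53inp1 without WT 1 (0.0718), CKO 1 (0.0696) and CKO 3 (0.0807). The remaining called genes, Polk and Gdf15, lost it in 4 and 5 of the alternative fits.

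Sesn1, chosen after its values were seen, had 30.9 ± 10.4 CPM in WT and 14.7 ± 4.58 CPM in CKO, with a log2 fold change of -1.02 that did not pass (limma's adjusted p = 0.0965). Among the members with a p53 link, Bbc3 was the gene whose groups overlapped.

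Genes of other cells that the tissue can hold were read beside the members. In the list of macrophages and osteoclasts 1 of 6 tested genes rose and 0 fell in limma, with 2 higher and 0 lower at an unadjusted p under 0.05. The tests of edgeR and DESeq2 each gave an adjusted p to 3 genes of the list and called 1 higher and 0 lower. The summed level was 100.02, 105 and 113 CPM in WT 1, 2 and 3 against 181, 180.4 and 194 CPM in CKO 1, 2 and 3, and Ctsk was the most abundant. The gene that rose was Cd68, from 9.09 ± 2.56 to 66.5 ± 16.97 CPM (log2 fold change 2.74, limma's adjusted p = 0.00114). Ptprc, which marks blood cells, had 1 read over all 6 libraries, and the part of these cells in the levels of the members was not tested.

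Of the 6 osteoblast genes 0 passed the adjusted threshold in limma, and 1 was higher and 1 lower at an unadjusted p under 0.05. Among the genes with an adjusted p, edgeR called 0 of 3 and DESeq2 0 of 4. The 6 genes summed to 436, 475 and 678 CPM in WT 1, 2 and 3 against 1026, 339.96 and 1150.04 CPM in CKO 1, 2 and 3. Col1a1 was the most abundant in WT, at 390 ± 138 CPM, and had 251 ± 15.2 CPM in CKO, with every CKO library below every WT library. Ibsp, chosen after its values were seen, was the most abundant in CKO 1 and CKO 3, at 708 and 808 CPM, and had 83.0 CPM in CKO 2. In the hypertrophic list Mmp13 was the most abundant of the 3 genes, of which 2 were tested and 0 passed in limma, edgeR or DESeq2, with 1 higher at an unadjusted p under 0.05 in limma. Their sum was 270.4, 276 and 696 CPM in WT 1, 2 and 3 against 2179, 424 and 2317 CPM in CKO 1, 2 and 3. The hypertrophic sum follows Mmp13, whereas Col10a1, chosen after its values were seen, had 24.8, 45.5 and 16.5 CPM in CKO 1, 2 and 3 and was highest in CKO 2. CKO 2 was thus the lowest CKO library in both sums, as it was for Fas and Pmaip1, while Bax, Perp, Bcl2, Bcl2l1 and Mcl1 were highest in CKO 2. Without CKO 2 there were also 5 members past limma's adjusted threshold, and the part of these cells in the levels of the members was not tested.

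RNA of muscle, endothelium and neutrophils was scarce. Muscle genes summed to 89.2 ± 66.6 CPM in WT and 86.7 ± 9.44 CPM in CKO (most abundant Mylpf), endothelial genes to 12.9 ± 3.94 and 13.3 ± 3.86 CPM (Egfl7), and neutrophil genes to 1.30 ± 0.488 and 3.65 ± 2.03 CPM (Camp). In these 3 lists 0 of the 5, 2 and 1 tested genes passed the adjusted threshold in limma. The tests of edgeR and DESeq2 each called 0 of 3 muscle genes and 0 of 1 endothelial gene with an adjusted p, and gave no neutrophil gene one. At an unadjusted p under 0.05 limma's count was 1 in muscle, 0 in endothelium and 0 in neutrophils.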

How the data were processed

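RNA of growth plate cartilage was read in 3 WT and 3 CKO libraries made with a stranded mRNA kit. The authors deposited CPM per gene and library. The submitters' processing notes name cutadapt 2.5, HISAT2 and featureCounts 1.6.3, and the genome build, annotation and strand setting are not given in the sources used here. Genes were matched by identifier, and 15212 of 15217 Ensembl identifiers were found in GENCODE M21 (GRCm38). Whole reads were recovered for 100% of values (tolerance 0.001 reads). With limma 3.58.1 in R 4.3.3, log2(CPM + 1) was fitted on genotype for the 12155 genes whose mean reached 1 CPM, using empirical Bayes moderation with a trend and adjustment over all of them (Benjamini-Hochberg). For low members this log2 scale gave smaller fold changes than a pseudocount of 0.25 CPM did. Pmaip1 had 2.38 against 2.78 and Bcl2 -0.53 against -1.07. On the recovered reads edgeR 4.0.16 (quasi-likelihood) called 737 of 7704 genes and DESeq2 1.42.0 (Wald) 649, against 703 in limma, and all 3 tests were checked on simulated data. Other alternatives were a pseudocount of 0.25, no filter, TMM and DESeq2 scaling, a replicate block, each library left out in turn, an adjusted p under 0.1, the criterion of the study and the longest transcript as length. Near-identical transcripts were searched with blastn 2.17.0 and promoters read from RefSeq GRCm38.p6. The members and lists were chosen with earlier results of these data known. Named were all members, called genes of the apoptosis and p53 lists (up to 8 per list by p), the most abundant gene of each list, and the 3 genes most like Bax among those reaching a mean of 20 CPM. Intervals and floors from reads cover counting error only, since reads of the same molecule cannot be told apart.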

Additional observations from a re-analysis of the deposited data

How the results depend on the processing

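The 13 alternatives kept the direction of each called member, and Perp was called in all of them. When single libraries were dropped, Bcl2l2 ran from -0.030 (without WT 3) to 0.42 on the log2 scale and Bcl2 from -1.09 to 0.21 (without CKO 1), and Bcl2 could not be fitted by edgeR, whose filter removed it. In the same fits members higher past the adjusted threshold numbered 1 to 5 and by the criterion of the study 3 to 5. Other apoptosis genes higher numbered 0 to 3 and by the criterion 0 to 1. Of the p53 targets, 6 to 10 were higher past the adjusted threshold and 0 to 1 lower by the criterion. Over all genes 122 to 658 were higher and 76 to 560 lower. By the criterion edgeR gave 380 higher genes over all. At an adjusted p under 0.1, 6 members (Bcl2l1 was added) and 3 other apoptosis genes were higher and 1 p53 target lower, with 696 higher and 570 lower over all genes. With a replicate block, 4 members and 0 other apoptosis genes were higher, and 225 genes were higher and 160 lower over all. The labels do not say whether same-numbered libraries are littermates. The deviations of same-numbered libraries from their group means correlated at 0.061, -0.23 and -0.16 over 5022 genes. No library correlated best with its own number. With 3 libraries per group such deviations can neither show nor exclude pairing, which stays unknown. Where no reason is given, the cause was not tested. At this depth a member with 3 reads stands at 2.06 to 2.60 CPM, which limits what can be said of Bcl2, Pmaip1, Tnfrsf10b and Bbc3.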
